A study of Mus musculus with 6 samples.

Results

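Cd5, Cd6, Cd2, Cd7, Cd28, Cd27 and Thy1 encode surface molecules by which T cells and their precursors are recognised. These 7 genes were taken as listed by name, out of 22180 genes with a value on the arrays, and each was read from the 1 probe set that carried only its symbol. All 7 were bright enough to be tested among 13308 genes. The cells were Ly6D-negative common lymphoid progenitors, marrow cells with T, B and natural killer cell potential. Flow cytometry gated them as low for lineage markers, positive for Kit, Sca and CD127, and negative for Thy1.2 and Ly6D.

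Control mice were OcnCre-;iDTR+/- and mutant mice were OcnCre+;iDTR+/-, with 3 arrays in each group. The Cre transgene is active where the osteocalcin promoter is, in bone-forming cells, and there turns on the toxin receptor of the iDTR allele, which makes those cells sensitive to diphtheria toxin. Mice of both genotypes carried iDTR and received the toxin every day for 4 weeks, and adults of 6 to 8 weeks were taken on the day after the last injection. The comparison asks how losing osteocalcin-expressing cells alters progenitor transcripts, here those of molecules that appear along the T cell path. The labels do not say whether a replicate was 1 mouse or a pool. The p-values therefore reflect the spread between arrays, which may be in part technical, and the number of arrays limits the precision. Eif2s3y, a Y chromosome gene, had a log2 intensity of 4.88 in control replicate 1 and 4.77 in mutant replicate 3, against 7.31 to 7.85 elsewhere. Xist, an X chromosome gene, was at 11.04 and 10.72 on those arrays, against 5.57 to 8.07 elsewhere. The sex of the mice was thus not the same on all arrays, and the main comparison did not adjust for it. In sorted bulk samples a lower value can come from fewer cells of a type or from less RNA per cell, and these cannot be told apart.

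As background, T cell precursors gain these molecules in steps. CD27, a receptor of the tumour necrosis factor receptor family that binds CD70, is already present on multipotent and lymphoid progenitors. CD7 marks early lymphoid and natural killer cells, and THY1 and CD2 appear as cells take up the T cell path in the thymus. CD5 and CD6, related scavenger receptor cysteine-rich proteins that damp T cell receptor signals, and CD28, the costimulatory receptor for CD80 and CD86, increase as thymocytes gain a T cell receptor.

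The labels name the tissue as marrow stromal cells and the cell type as Ly6D-negative progenitors. Genes of the lymphoid progenitor were well above the level of 4.84 (log2 intensity) under which genes were not tested. Il7r, which encodes CD127, lay between 9.72 and 10.35, Dntt, the gene of the template-free polymerase of antigen receptor joining, between 10.61 and 11.05, and Kit between 6.96 and 7.41. Markers of other lineages were bright as well. The myeloid markers S100a8 and Mpo lay between 11.32 and 12.09 and between 9.48 and 11.45. Cd79a, a B cell marker, lay between 10.02 and 10.73. Which cells carried these transcripts was not tested. Of 13 bone and stromal markers with a value, 5 were too dim to be tested, among them Lepr, Kitl and Sp7. The means of the other 8 were above 4.84. The brightest were Alpl, between 7.82 and 8.29, and Pecam1, between 7.30 and 7.88, while Bglap, the osteocalcin gene, lay between 5.04 and 5.50. The values do not show whether RNA of bone or stromal cells was present or absent. Mutant replicate 2 stood apart: its Pearson's r across probe sets, which are no replicates, was 0.935 to 0.954 with other arrays, against 0.973 to 0.989 among the remaining 5.

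No member of the group passed an adjusted p of 0.05 between mutant and control progenitors. Cd7 had the largest difference, with a mutant mean 0.62 ± 0.18 below control on the log2 scale (SE; a ratio of 0.651). Cd27 was also lower on all 3 mutant arrays than on all 3 control arrays, and Cd5 was higher on all 3 mutant arrays. Cd2, Cd28 and Thy1 had lower mutant means with overlapping arrays, and Cd6 had nearly the same mean in both groups.

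Over the group, mutant means were lower for 5 of 7 genes and the median difference was −0.27, while 57.5% of all tested genes were lower, with a median of −0.04. The median was −0.085 without control replicate 3, with 5 of 7 still lower. In limma 0 of 7 members and 0 of 13308 genes passed the adjusted threshold (0% of genes). An unadjusted p under 0.05 was found for 3 of 7 members, of which Cd7 and Cd27 were lower and Cd5 was higher. The same 3 members were below 0.05 in the unmoderated test. In limma Cd27 was not below it after cyclic loess (unadjusted p = 0.112), after repeated quantile normalization (0.138), with the replicate number as a block (0.065) or without any 1 array other than mutant replicate 2 (0.0628 to 0.0909). Cd5 was not below it with each array centred on its median (unadjusted p = 0.117 in limma), with that block (0.0856), or without any 1 of the controls or mutant replicate 1 (0.0589 to 0.107). Cd7 was below it in each of these settings. Of all tested genes 8.03% had such a p, 6.02% lower and 2.01% higher. The lower genes were 75% of those calls in the deposited values, 63.1% after cyclic loess, 60.5% after repeated quantile normalization and 89.1% with each array centred on its median. The values of the groups did not overlap for the same 3 members, against 15.4% of tested genes, 9.99% with mutants lower and 5.4% with mutants higher. The genes were proposed with earlier results of these data known, so these counts describe the group and test nothing.

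**Figure D1:**
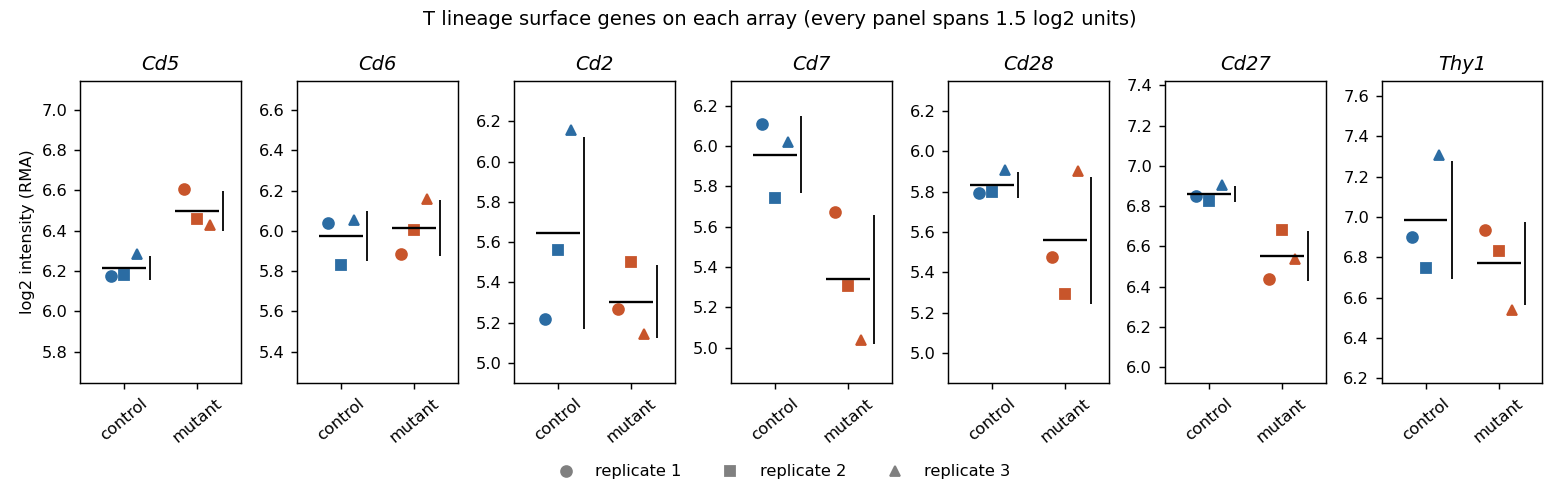
Log2 intensity of the 7 surface genes on each array, 1 panel per gene, with control in blue and mutant in orange. Each marker shape is a replicate number, the horizontal line is the group mean and the vertical line beside it spans 1 SD on either side (n = 3 each). The groups are apart in Cd5, Cd7 and Cd27 and overlap in the other panels.

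Cd5 encodes an inhibitory receptor of T cells and of some B cells. Its log2 intensity was 6.18, 6.18 and 6.29 on the control arrays, in the order of replicates 1, 2 and 3 kept throughout, and 6.61, 6.46 and 6.43 on the mutant arrays. The lowest mutant array lay 0.14 above the highest control array, so the groups did not overlap. The group means were 6.21 ± 0.06 and 6.50 ± 0.10 (SD, n = 3 each), a difference of 0.28 ± 0.11 (SE; 95% interval 0.02 to 0.54; a ratio of 1.22). The limma test gave an unadjusted p of 0.0375 and an adjusted p of 0.594. The difference stayed between 0.23 and 0.32 when any 1 array was left out, and was 0.33 after cyclic loess, which removes trends with brightness between arrays.

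Cd6, the paralogue of Cd5, encodes the receptor that binds ALCAM. The 2 genes lie next to each other on chromosome 19 with 1 annotated gene between them, the long non-coding RNA gene A430093F15Rik (RefSeq, GRCm38.p6). Cd6 was at 6.04, 5.83 and 6.06 in the controls and at 5.88, 6.00 and 6.16 in the mutants. The lowest array was a control and the highest a mutant, with the others mixed between them. The difference was 0.04 ± 0.13 (SE), and its 95% interval of −0.26 to 0.34 still takes in the whole difference measured for Cd5. It turned to −0.033 without control replicate 2 and −0.032 without mutant replicate 3, and to −0.023 under centring of each array on its median.

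Sequence upstream of the start was at hand for only 2 of the 7 genes, Cd5 and Cd27, and both are shown. The sequences are the bases of the RefSeq promoter windows that fall outside the annotated gene, 5′ to 3′ on the minus strand of GRCm38.p6. Capitals mark CAGGTG on either strand, a core bound by E proteins, the helix-loop-helix factors of lymphoid cells.
Cd5, chr19:10739027-10739224: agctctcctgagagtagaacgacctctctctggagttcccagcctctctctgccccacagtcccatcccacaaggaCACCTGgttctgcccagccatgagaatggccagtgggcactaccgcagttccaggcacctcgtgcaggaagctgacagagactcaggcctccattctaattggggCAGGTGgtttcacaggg
Cd27, chr6:125237137-125237277: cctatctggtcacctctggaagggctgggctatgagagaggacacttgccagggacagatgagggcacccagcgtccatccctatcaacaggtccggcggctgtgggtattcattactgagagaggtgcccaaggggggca
The Cd5 window of 198 bases held CAGGTG 2 times, and 14.3% of 32851 promoter windows cut to that length held it at least 1 time. The Cd27 window of 141 bases did not hold it, as against 10.2% of windows of that length that did. Neither window held TGTGGT, a core of RUNX sites, or GAGGAA, a core of ETS family sites such as that of PU.1, on either strand. These letters were held by 11.4% and 18.6% of windows of the Cd5 length and by 8.27% and 14.0% of windows of the Cd27 length. A match is a description of letters and not of a bound site.

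Cd27 encodes the TNF receptor family member that lymphoid progenitors carry before they commit. It was at 6.85, 6.83 and 6.90 in the controls and at 6.44, 6.68 and 6.54 in the mutants. The controls lay close together, and the highest mutant, replicate 2, was 0.14 below the lowest control. The means were 6.86 ± 0.04 and 6.55 ± 0.12 (SD, n = 3 each), a difference of −0.31 ± 0.12 (SE; 95% interval −0.58 to −0.04; a ratio of 0.808). In limma the unadjusted p was 0.0292 and the adjusted p 0.594. The groups were not apart under every normalization. After cyclic loess mutant replicate 2 was at 6.79 and control replicate 2 at 6.77, so that the groups overlapped, and the difference was −0.23. Without mutant replicate 2 it was −0.37 in the deposited values and −0.33 after cyclic loess.

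Cd7 encodes an immunoglobulin family receptor of early lymphoid, T and natural killer cells. It was at 6.11, 5.74 and 6.02 in the controls and at 5.67, 5.31 and 5.04 in the mutants. Every mutant array was below every control array, but control replicate 2 and mutant replicate 1 lay only 0.07 apart. The means were 5.96 ± 0.19 and 5.34 ± 0.32 (SD, n = 3 each), and the 95% interval of the difference ran from −1.05 to −0.19. In limma the unadjusted p of 0.0101 was in place 148 of 13308 genes, and the adjusted p was 0.594. The difference was −0.47 without mutant replicate 3, which had the lowest value, and −0.79 without mutant replicate 1. After cyclic loess it was −0.65, with the groups still apart.

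An exact permutation test over the 6 arrays, 2-sided, gave p = 0.1 for each of Cd5, Cd27 and Cd7, which is the smallest p that 3 against 3 arrays allow.

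Cd2 encodes the adhesion receptor that binds CD48 on neighbouring cells in mice. It was at 5.22, 5.56 and 6.16 in the controls and at 5.27, 5.50 and 5.14 in the mutants. Control replicate 3 stood well above the other arrays, while control replicate 1 lay below 2 of the 3 mutants. The difference was −0.34 ± 0.23 (SE; adjusted p = 0.616 in limma), and it was −0.085 without control replicate 3 and −0.55 without control replicate 1.

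Thy1 encodes a GPI-anchored glycoprotein of thymocytes, and its Thy1.2 form was a marker against which the cells were sorted. It was at 6.90, 6.75 and 7.31 in the controls and at 6.94, 6.83 and 6.54 in the mutants. Control replicate 3 was again the highest array, mutant replicate 3 was the lowest, and the other 4 arrays were mixed. All values lay above the level under which genes were not tested, but the files hold no detection call, so whether they are above background cannot be read from them. The difference was −0.21 ± 0.18 (SE; adjusted p = 0.662 in limma). It was −0.052 without control replicate 3, −0.10 without mutant replicate 3 and −0.33 without control replicate 2.

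Genes of the T cell receptor complex were highest on the same control array. Cd3e was at 6.78 in control replicate 3 and at 5.32 to 5.99 on the other arrays, and Cd3g was at 6.36 against 4.89 to 5.64. Cd3d was at 6.42 in control replicate 3 and next highest, at 6.15, in mutant replicate 1. Cd8b1, which encodes the beta chain of the CD8 coreceptor, was at 6.23 in control replicate 3 against 5.05 to 5.80. Of the 10 tested T cell markers these 4 had their highest value there, as had 15.5% of all tested genes, while Zap70, Lat, Bcl11b, Ptcra, Gata3 and Cd4 had theirs elsewhere. The mean level of the 10 markers was 5.64 to 6.15 in controls and 5.54 to 5.91 in mutants. Cd8a, Themis and Trat1 were too dim to be tested, and 5 listed markers, among them Tcf7 and Lck, were not analysed here. Cd2, Thy1, Cd27 and Cd28 also had their highest value in control replicate 3, Cd28 at 5.91 there against 5.90 in mutant replicate 3.

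Without control replicate 3 the differences of Cd2 and Thy1 were −0.085 and −0.052, while those of Cd7, Cd27 and Cd5 were −0.59, −0.29 and 0.32. The part of T cell transcripts in the values of Cd2 and Thy1 was not tested further. Over the T cell markers 7 of 10 had a lower mutant mean (median −0.08), and it was 4 of 10 both without control replicate 3 (median 0.06) and without mutant replicate 2, where Cd3d and Cd3g were lowest. Without mutant replicate 1 the median was −0.22. Lower mutant means were found in 57.5% of all tested genes. At an unadjusted p under 0.05 in limma there were 0 of 10 markers, against 8.03% of all tested genes, and 0 markers passed the adjusted threshold. The lowest p belonged to Bcl11b, a T lineage commitment gene, which was higher on all 3 mutant arrays (0.23 ± 0.11, SE), then to Cd3g (−0.56 ± 0.28) and Lat (−0.26 ± 0.22).

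**Figure D2:**
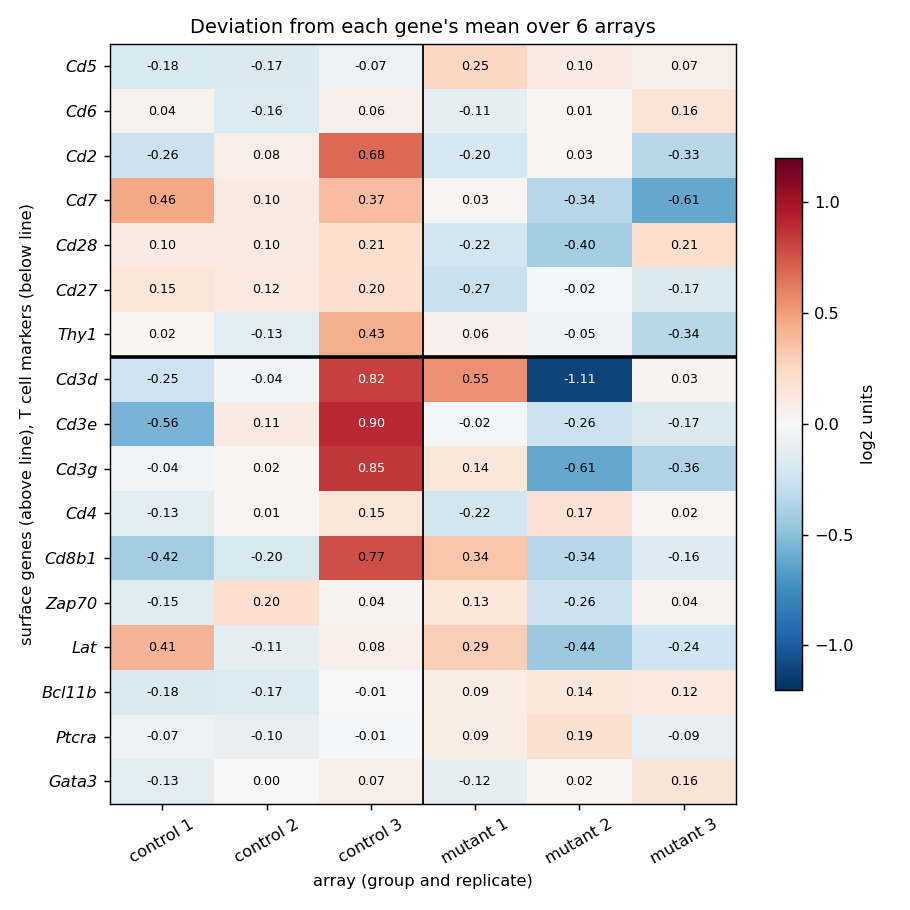
Deviation of each array from the gene's own mean over the 6 arrays, in log2 units, for the 7 surface genes (above the black line) and the 10 tested T cell markers (below it). Red is above and blue below the mean. In control replicate 3 Cd2 is 0.68 and Thy1 is 0.43 above its mean, beside the Cd3 genes and Cd8b1. In Cd5 and Cd27 the controls lie on one side of the mean and the mutants on the other.

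Cd28 encodes the main costimulatory receptor of T cells. It was at 5.79, 5.80 and 5.91 in the controls and at 5.48, 5.29 and 5.90 in the mutants. Mutant replicates 1 and 2 were below all controls, and mutant replicate 3 was level with the highest control. The difference was −0.27 ± 0.17 (SE; adjusted p = 0.604 in limma), with −0.14 when mutant replicate 2 was left out and −0.45 when mutant replicate 3 was.

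**Figure D3:**
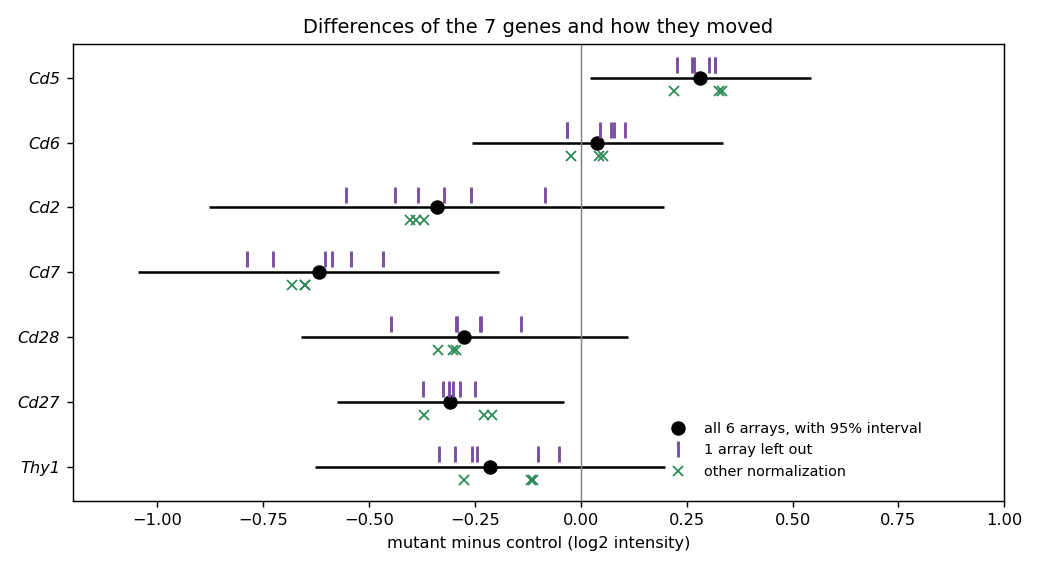
Mutant minus control difference of the 7 genes in log2 intensity. Black points with lines are the values from all 6 arrays with 95% intervals, purple ticks are the values with 1 array left out, and green crosses are other normalizations. The intervals of Cd5, Cd7 and Cd27 do not reach 0, before adjustment over all genes, and the ticks of Cd6 lie on both sides of 0.

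The ligands of these receptors were mostly dim. Of 11 ligand genes with a value, 6 were under the level for testing, including Cd70, the ligand of CD27, Cd80 and Cd86, the ligands of CD28, and Sectm1a and Sectm1b, whose proteins are related to a ligand of CD7. Of the 5 tested, 2 had a lower mutant mean (median 0.006), 0 passed the adjusted threshold in limma and 1 had an unadjusted p under 0.05. Among all tested genes 57.5% were lower and 8.03% had such a p. The median of the ligands ran from −0.079, without control replicate 2, to 0.07, without control replicate 1. Cd48, the ligand of CD2, was at 8.55, 8.57 and 8.57 in the controls and at 8.74, 7.71 and 8.28 in the mutants, and differed by −0.32 ± 0.24 (SE). Itgav, an integrin gene whose product binds THY1 as a dimer with the product of Itgb3, was at 6.94, 7.08 and 7.01 against 6.68, 6.69 and 6.71. It was lower on every mutant array (−0.31 ± 0.11; unadjusted p = 0.0201 and adjusted p = 0.594 in limma), while Itgb3 differed by 0.09 ± 0.15.

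Among the adaptors and enzymes that act below these receptors, 17 of 22 tested genes had a lower mutant mean (median −0.12). None of the 22 passed the adjusted threshold in limma, and 3 had an unadjusted p under 0.05. In 4 of the 22 the groups did not overlap. Among all tested genes 57.5% were lower, 8.03% had such a p and 15.4% did not overlap. Ptpn6, the phosphatase SHP-1 that binds CD5, was at 8.50, 8.75 and 8.61 in the controls and at 8.34, 8.10 and 7.81 in the mutants. Its groups did not overlap, with a difference of −0.54 ± 0.16 (SE). Traf2, an adaptor of CD27, was apart as well (−0.48 ± 0.16), and Ubash3a, a phosphatase family gene that restrains T cell receptor signals, differed by −0.34 ± 0.14. The balance of this list moved with the normalization: after cyclic loess 11 of 22 were lower, with a median of −0.01, and without mutant replicate 3 it was 12 of 22, with a median of −0.048. Without mutant replicate 1 the median was −0.21.

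Relatives of CD28 and of the CD2 partner CD48 were lower in 9 of 10 tested genes (median −0.17), with 0 past the adjusted threshold and 1 at an unadjusted p under 0.05 in limma. That gene was Slamf7, a SLAM family receptor, at 9.50, 10.08 and 10.02 in the controls and 9.43, 9.15 and 9.42 in the mutants (−0.53 ± 0.18, SE). Slamf9 (−0.29 ± 0.13) and Ly9 (−0.17 ± 0.11) were also apart, Cd244a differed by −0.23 ± 0.14, and Icos, the relative of CD28, by −0.02 ± 0.11. After cyclic loess 8 of 10 were lower, with a median of −0.09. In the deposited values 57.5% of all tested genes were lower, 8.03% had an unadjusted p under 0.05 in limma and 15.4% did not overlap. Relatives of CD27 in the TNF receptor superfamily were lower in 7 of 12 tested genes (median −0.008), with 0 past the adjusted threshold and 0 at an unadjusted p under 0.05 in limma. It was 4 of 12 without control replicate 2, where the median turned to 0.056. Tnfrsf18, which encodes GITR, had the lowest p among them (−0.33 ± 0.16), followed by Tnfrsf8 (0.24 ± 0.16) and Tnfrsf1b (0.16 ± 0.17).

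**Figure D4:**
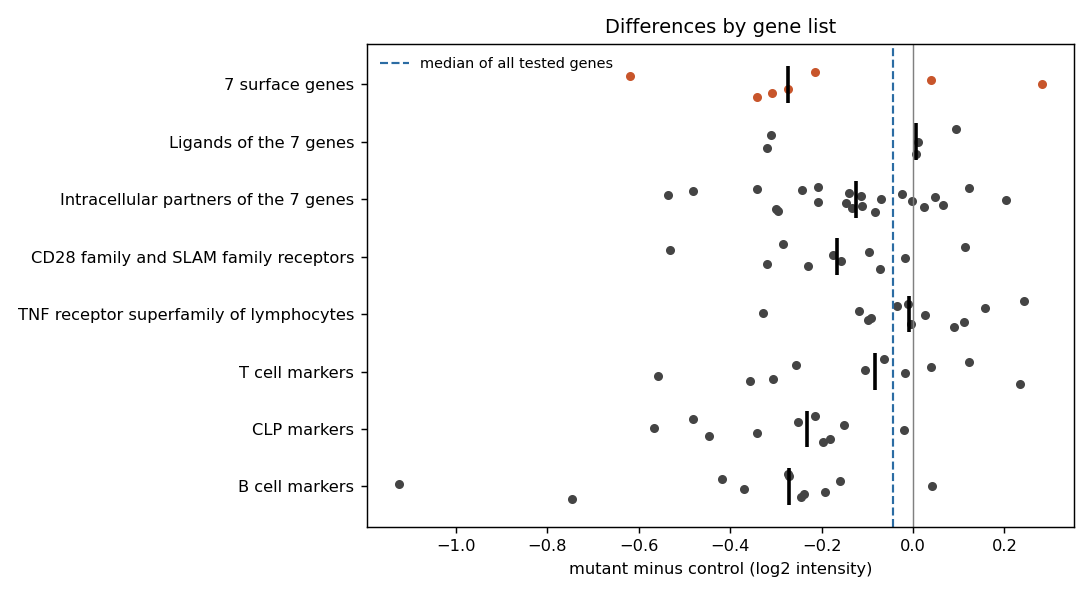
Mutant minus control differences (log2 intensity) of tested genes, 1 point per gene, in the 7 surface genes (orange) and in lists of their ligands, intracellular partners, relatives and cell type markers. Black bars are list medians, and the dashed line is the median of all tested genes, −0.04. The 7 genes span −0.62 to 0.28.

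The list of progenitor markers included Thy1 and Ly6d, genes of surface markers for which the sorted cells were gated negative. Its counts therefore do not describe markers of the gated cells alone. Mutant means were lower in 10 of 10 tested genes (median −0.23). In limma 0 of them passed the adjusted threshold and 2 had an unadjusted p under 0.05. These were Ikzf1, the gene of the lymphoid regulator Ikaros (−0.45 ± 0.13, SE), and Satb1, a chromatin organiser gene (−0.48 ± 0.17). Il7r (−0.34 ± 0.15), Dntt (−0.20 ± 0.12) and Rag2 (−0.25 ± 0.15) were each lower on all mutant arrays. Ly6d (−0.57 ± 0.29), Flt3 (−0.18 ± 0.20), Notch1 (−0.15 ± 0.13) and Kit (−0.02 ± 0.16) overlapped. Although the gate excluded Ly6D, the mean of Ly6d was 7.86 in controls and 7.29 in mutants. Which cells gave the Ly6d signal was not tested. The median of the list was −0.10 after cyclic loess, and 8 of 10 were lower without control replicate 1. Of all tested genes 57.5% were lower, 6.02% were lower at an unadjusted p under 0.05 in limma and 9.99% were lower without overlap.

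Markers of other cells that can carry CD7, CD2 or CD5 were read beside the surface genes. A lower mutant mean was found in 57.5% of all tested genes. Of 11 tested natural killer and innate lymphoid markers 8 had a lower mutant mean (median −0.06), with Klrd1 (−0.46 ± 0.25, SE), Rora (0.16 ± 0.12) and Prf1 (0.21 ± 0.17) at the lowest p. Without control replicate 1 it was 4 of 11, with a median of 0.044, and without control replicate 2 the median was −0.32. Their mean level was 5.75 to 6.17 in controls and 5.80 to 5.98 in mutants. Of 11 tested B cell markers 10 were lower (median −0.27), led by Blk (−0.75 ± 0.20), Fcrla (−1.12 ± 0.37) and Igll1 (−0.42 ± 0.17), with a median of −0.09 after cyclic loess. Blk was lower on all mutant arrays, while the groups overlapped in Fcrla and Igll1. The median ran from −0.40 to −0.18, without control replicates 1 and 2 respectively. Of 8 tested plasmacytoid dendritic markers 6 were lower (median −0.17), with Pld4 at −0.85 ± 0.18, Spib at −0.74 ± 0.40 and Irf8 at −0.37 ± 0.31. That median was −0.033 without mutant replicate 2, −0.29 without control replicate 3 and −0.008 after cyclic loess. None of these genes passed the adjusted threshold in limma, and their part in the lower Cd7 values was not tested.

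Genes whose values followed those of a member most closely over the 6 arrays were named as a description, with Pearson's r and, for Cd7, Spearman's rank correlation, and no test, since each was the best of 13308 genes over only 6 arrays that include the group difference. For Cd7 they were Csf1r, the receptor gene of macrophage colony-stimulating factor (r = 0.994), Parg (0.993) and Klhl2 (0.992), each with a rank correlation of 1. Csf1r was at 6.60, 6.43 and 6.55 in the controls and at 6.39, 6.10 and 5.99 in the mutants, the same order of arrays as Cd7. For Cd5 they were Popdc2 (r = 0.987), 9130019P16Rik (0.983) and Gm12866 (0.976), and for Cd27 Usp30 (0.991), Itga9 (0.985) and Oxsr1 (0.983). For Cd2 they were Zfp945 (0.993), Arf6 (0.989) and Zfp174 (0.988), and for Thy1 Sidt1 (0.987), Rhobtb2 (0.975) and Il27ra (0.969). For Cd6 they were Slc26a2 (0.988), Tcim (0.978) and Gm15708 (0.977), and for Cd28 Ammecr1 (0.988), Sez6l2 (0.983) and Ccdc51 (0.980). No member was among the 3 genes most like another member.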

How the data were processed

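Per the labels' protocols, Trizol-extracted RNA of 3 control and 3 mutant samples went through NuGEN Ovation amplification and onto Affymetrix arrays. The authors deposited 1 log2 value per probe set, for which the submitters' processing notes name RMA. The RMA version and the genome build were not given in the sources used here. RMA is meant to make the arrays' distributions alike and gives no detection call. The deposited distributions were not fully alike. Probe set medians were 5.06 to 5.07 on the controls and mutant replicate 1, 5.18 on mutant replicate 2 and 5.13 on mutant replicate 3.

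Of 41345 probe sets, 23521 had 1 gene symbol in the platform annotation, 1814 had several and 16010 had none listed. Each of 22180 genes was read from its probe set with the highest mean, and the lowest 40% (under 4.84) were not tested. The identifiers of all 7 members matched the RefSeq table with the same symbol. Groups and replicate numbers came from the sample titles. Groups were compared by lmFit and eBayes of limma 3.58.1 (R 4.3.3), 2-sided, with Benjamini-Hochberg adjusted p-values over 13308 genes and a threshold of 0.05, after a test on simulated data. A difference is given with its standard error from limma. The plots used matplotlib 3.10.9.

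The members, the lists and the rule for named genes were chosen with earlier results of these data known. Named were all members, all progenitor markers, the 3 genes of each other list with the lowest p and the 3 genes most like each member. Ly9, Icos, Cd70, Cd80, Cd86, Sectm1a, Sectm1b, Cd3d, Cd3e, Cd4, Cd8a, Cd8b1, Gata3, Kitl, Lck, Lepr, Ptcra, Sp7, Tcf7, Themis, Trat1, Zap70, S100a8, Mpo, Cd79a, Eif2s3y and Xist were named in addition, after their values were seen. Lists of myeloid, erythroid and megakaryocyte, stem and multipotent progenitor and bone and stromal markers were also read. Alternatives covered the dim filter, the probe set choice, the variance prior, array weights, normalization, blocks and leaving out each array. Cyclic loess without mutant replicate 2 was chosen after seeing the data.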

Additional observations from a re-analysis of the deposited data

How the results depend on the processing

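Of 130 values of the 7 differences under the alternatives, 123 kept their sign and their side of the adjusted threshold. Changes of the dim filter, probe set choice, variance prior or replicate block, and the unmoderated test, leave a member's difference as it is. Its sign could not change under these, so the count overstates how steady the signs are. The 3 values that passed the adjusted threshold all came from array weights, which placed 5.20 on mutant replicate 3 and 0.21 on mutant replicate 2. With these weights 2960 genes passed in limma, among them 3 members, Cd7 (−0.85, adjusted p = 0.00808), Cd2 (−0.59, adjusted p = 0.0427) and Cd27 (−0.33, adjusted p = 0.019), and Cd28 turned to 0.010. Over all alternatives the adjusted p ran from 0.00808 to 0.885 for Cd7, from 0.0821 to 0.885 for Cd5 and from 0.019 to 0.885 for Cd27. Cd6 took a negative sign in 3 settings, at −0.033 without control replicate 2, −0.032 without mutant replicate 3 and −0.023 with arrays centred on their medians. Leaving out 1 array moved Cd6 between −0.033 and 0.11. The cause of these changes was not tested. With 60% of genes left out as dim, Cd7, Cd2 and Cd28 were no longer tested, and 2 of the 4 members left were lower, with a median of −0.088. The median of all genes tested under that filter was −0.116, so the members left were not lower than genes in general. Leaving out 1 array gave 0 to 6 genes past the threshold, with 6 without mutant replicate 1 and 1 without mutant replicate 2, and 0 members in each case. The members' median then ran from −0.33, without control replicate 2, to −0.085, without control replicate 3, and 5 to 6 of them were lower. The median of all tested genes moved by under 0.1 with each normalization, to −0.11 with arrays centred on their medians and to −0.01 after cyclic loess. The share of tested genes with a lower mutant mean, 57.5% in the deposited values, was 68.9% with that centring. It was 52.1% after cyclic loess and 51.6% after repeated quantile normalization.

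The replicate numbers gave no clear sign of pairing: same-numbered arrays' deviations from their group means correlated at −0.13 to 0.20, and 1 of 3 controls was most like its own number. With 3 arrays per group this check cannot exclude shared handling by number. With the replicate block 0 genes and 0 members passed, the members' median stayed at −0.27, and the adjusted p was 0.597 for Cd7. Each member had 1 probe set, so other choices of probe set changed no member's value. Signal over background limits the dim ligands, since the files hold no detection call.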

Other observations

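Markers of the remaining blood lineages and of bone were read on the same arrays. Across all tested genes 57.5% had a lower mutant mean and 8.03% an unadjusted p under 0.05 in limma. All 9 tested erythroid and megakaryocyte markers had a higher mutant mean (median 0.21), with 0 past the adjusted threshold in limma and 1 at an unadjusted p under 0.05. That gene was Epor, the erythropoietin receptor gene, with control values of 5.93, 5.82 and 5.92 and mutant values of 6.17, 6.49 and 6.11, by replicate number. Gp5 and Itga2b, platelet receptor genes, differed by 0.21 ± 0.14 and 0.17 ± 0.14 (SE). Without control replicate 2 the erythroid and megakaryocyte genes had a median of 0.067, with 2 of 9 lower. Of 15 tested myeloid markers 8 were higher and 7 lower (median 0.02), with Csf1r at −0.37 ± 0.14, Elane, the neutrophil elastase gene, at 0.87 ± 0.53 and Cebpe, a granulocyte factor gene, at 0.28 ± 0.27. Their count of lower genes ran from 3 of 15, without mutant replicate 2, to 11 of 15, without control replicate 2, with 4 of 15 without control replicate 1, and the median was −0.11 without mutant replicate 1. Of 5 tested stem and multipotent progenitor markers 4 were higher (median 0.09), including Hoxa9 (0.16 ± 0.13), Procr (0.07 ± 0.12) and Meis1 (0.09 ± 0.18), while without mutant replicate 1 their median was −0.073, with 3 of 5 lower, and without mutant replicate 2 it was 0.22. Of 8 tested bone and stromal markers 4 were lower (median −0.005, with 2 of 8 lower without mutant replicate 1), with Pecam1 at −0.19 ± 0.15, Alpl at 0.14 ± 0.15 and Bglap, the osteocalcin gene, at 0.12 ± 0.14. Apart from Epor and Csf1r, which had an unadjusted p under 0.05, none of the genes named here did, and none passed the adjusted threshold.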
